A study of Arabidopsis thaliana with 18 samples.

Results

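The genes described are scpl22 (AT2G24000) and scpl30 (AT4G15100), both named for their likeness to serine carboxypeptidases. They were found by their lower-case symbols in the table that names the array's probe sets, which gives each gene 1 probe set of its own (266564_at for scpl22 and 245531_at for scpl30). They are 2 of 13356 genes with such a probe set, among 22746 probe sets that are not controls. Both were chosen on their signals in these arrays, with the values in all 6 groups known, so their levels and differences are given as a description, with no test.

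Serine carboxypeptidases are hydrolases that use a catalytic triad of serine, aspartate and histidine to remove amino acids from the carboxyl end of proteins and peptides. Most plant members are made as secretory proteins that end up in the vacuole or the cell wall. In Arabidopsis the family is large, and its members do different work: SNG1 and SNG2 are acyltransferases that make sinapate esters from a glucose ester, and BRS1 is known for its effect on brassinosteroid signalling. Phosphate (Pi) starvation is a condition in which plants recycle Pi from their own molecules. SPX1 and SPX2 are nuclear proteins known to bind the starvation regulator PHR1 and to hold it back when Pi is ample.

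The samples were whole Arabidopsis thaliana seedlings aged 7 days, of the spx1 spx2 double mutant and of wild-type (WT) Col-0. Each genotype was grown in complete medium, in medium lacking Pi, or in medium lacking Pi followed by complete medium for 4 h (resupplied). The sources used here name no alleles and do not say whether the double mutant was more than 1 line. Each of the 6 groups had 3 arrays labelled as biological replicates. Where these share a growth batch, the spread between them is smaller than that between independent experiments.

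Signals are on a log2 scale after robust multi-array averaging (RMA), so a difference of 1 is 2-fold. Array medians lay between 6.72 and 6.91. The lowest of the arrays' lower quartiles was 4.40, and a signal below it is called dim here. A difference that starts from a dim signal has no well-defined size, so it is also given with dim group means raised to 4.40. The dap spike-in control set 3 arrays apart, at 7.40 to 7.49 against 9.56 to 10.77 in the other 15: mutant in complete medium replicate 2, mutant without Pi replicate 1 and WT in complete medium replicate 3. A ubiquitin control probed near both ends of its transcript gave a difference between the ends, a measure of RNA quality, of 1.3 in mutant and 1.34 in WT seedlings grown in complete medium. It was 1.01 in mutant and 1.03 in WT seedlings lacking Pi, and 1.18 and 1.16 once resupplied. The same measure of GAPDH lay between -0.17 and 0 in all 6 groups. That of actin was 3.33 in the mutant and 2.95 in WT in complete medium. Lacking Pi it was 3.28 in the mutant and 3.35 in WT, and once resupplied 3.22 and 3.49. A second ubiquitin control gave 0.36 in both genotypes in complete medium. It gave 0.05 in the mutant and 0.16 in WT lacking Pi, and 0.23 and 0.16 once resupplied. Both ubiquitin controls were thus highest in complete medium in both genotypes. Actin was highest there in the mutant only, and GAPDH in WT only. The part of these control differences in the results below was not tested.

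The signal of scpl22 was dim in seedlings with Pi and high in seedlings without it. Without Pi, mutant seedlings read 7.22, 7.78 and 7.64, against 3.34, 3.30 and 3.29 in complete medium. In WT seedlings the signals were 7.80, 7.99 and 8.01 without Pi, against 3.55, 2.99 and 4.09 in complete medium. In both genotypes every array without Pi lay more than 3 log2 units above every array with complete medium. The gene stood on average at percentile 61.6 of the probe sets of an array in the mutant and 67 in WT without Pi, against 8.78 in the mutant and 10.9 in WT in complete medium.

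The scpl22 difference between seedlings without Pi and in complete medium was 4.23 ± 0.19 in the mutant and 4.39 ± 0.19 in WT (SE from the model, n = 3 arrays per group), or 18.8-fold and 21-fold as fitted. With the dim complete medium group raised to 4.40 it was 8.86-fold in the mutant and 11.6-fold in WT, so the size of the fold depends on how dim signals are treated. The array with low spike-in signal was the highest of the WT complete medium arrays (4.09). Without the 3 low spike-in arrays the difference was 4.39 in the mutant and 4.66 in WT.

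After 4 h of resupply the scpl22 signal was again dim in every array. Resupplied mutant seedlings read 3.84, 4.03 and 4.11, against 7.22, 7.78 and 7.64 without Pi. Resupplied WT seedlings read 3.42, 3.59 and 3.55, against 7.80, 7.99 and 8.01 without Pi. The difference was -3.55 ± 0.19 in the mutant and -4.42 ± 0.19 in WT, and with the dim resupplied group raised to 4.40 it was -3.15 and -3.54. Samples were whole seedlings, so fewer cells with the transcript and less transcript per cell cannot be told apart.

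Against seedlings that had stayed in complete medium, resupplied mutant seedlings were higher for scpl22 by 0.68 ± 0.19, without overlap between the arrays. In WT the same difference was -0.03 ± 0.19, with overlap. All 12 arrays in these comparisons were dim, so neither value can be read as a fold. These resupplied against complete medium differences were added after seeing the data.

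**Figure D1:**
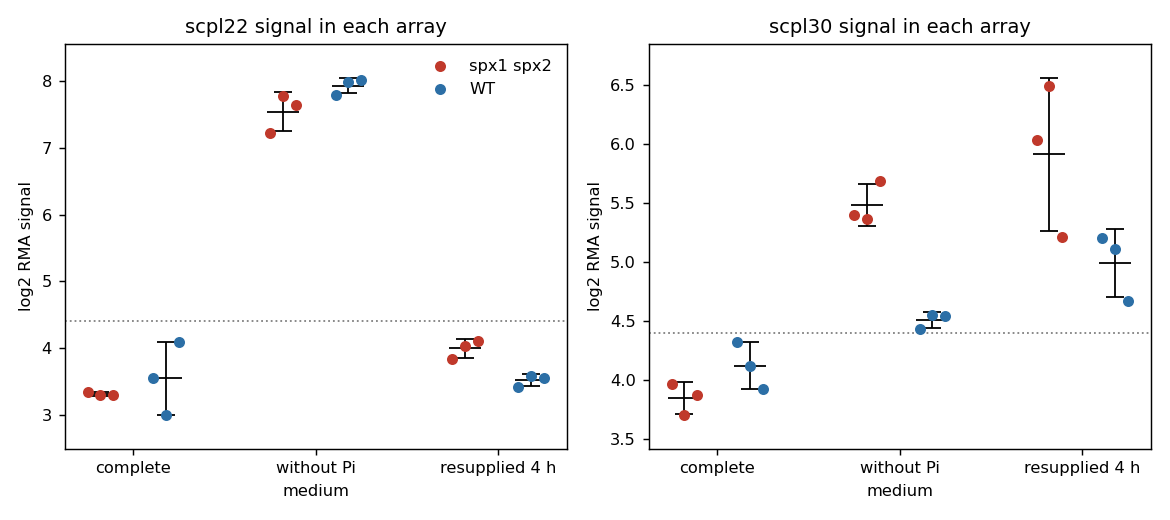
Signal of scpl22 (left) and scpl30 (right) in each array, on the log2 RMA scale, by medium and genotype. Points are arrays, the long bar is the mean of 3 arrays, the whiskers are ± 1 SD, and the dotted line marks 4.40, the lowest of the arrays' lower quartiles. The scpl22 arrays without Pi lie between 7.22 and 8.01 and all others at or below 4.11, while scpl30 is highest in the mutant without Pi and after resupply.

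The genotypes differed for scpl22 by far less than the media did. Without Pi the mutant was lower by 0.39 ± 0.19 log2 (7.54 ± 0.29 against 7.94 ± 0.12 in WT, SD, n = 3 each), with the nearest arrays of the groups 0.02 apart. Leaving out mutant replicate 1, an array with low spike-in signal, gave -0.23. After resupply the mutant was higher by 0.47 ± 0.19 (3.99 ± 0.14 against 3.52 ± 0.09), again without overlap and with both groups dim. In complete medium the difference was -0.23 ± 0.19 with overlapping arrays, and 0.04 without WT replicate 3.

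The scpl22 starvation change differed between the genotypes by -0.16 ± 0.27 log2 and the resupply change by 0.87 ± 0.27 (mutant minus WT). The second value depends on dim signals, as the values at 4.40 given above differ only by the difference without Pi. Ordered by mean, scpl22 was lowest in mutant seedlings in complete medium (3.31), then in WT resupplied (3.52), WT complete (3.54), mutant resupplied (3.99), mutant without Pi (7.54) and WT without Pi (7.94). The second group of this order overlapped the third, and the third overlapped the fourth.

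The signal of scpl30 was also lowest in complete medium, but it stayed up after resupply and was higher in the mutant than in WT once Pi had been withdrawn. Without Pi, mutant seedlings read 5.40, 5.36 and 5.68, against 4.43, 4.55 and 4.54 in WT seedlings. After resupply, mutant seedlings read 6.03, 6.49 and 5.21, against 5.21, 5.11 and 4.67 in WT. In complete medium the order was turned: mutant seedlings read 3.96, 3.70 and 3.88, against 4.32, 4.12 and 3.92 in WT, all dim and with overlapping arrays.

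The mutant exceeded WT for scpl30 by 0.97 ± 0.22 log2 without Pi (1.96-fold) and by 0.92 ± 0.22 after resupply (1.89-fold). Arrays did not overlap in either medium, but after resupply the nearest were 5.214 in the mutant and 5.205 in WT. WT without Pi averaged 4.51, just above the dim level, at percentile 25.5, with 1 of 3 arrays below its own lower quartile. The 1.96-fold thus starts from a nearly dim signal. In complete medium the difference was -0.27 ± 0.22. The difference without Pi ranked 17th of all probe sets among those higher in the mutant, and 44th by absolute size. Few probe sets differed in this comparison. The gene was chosen with these values known, so nothing is read from the ranks. The resupplied mutant arrays were the most spread group, with an SD of 0.65. Leaving out their replicate 3 gave a genotype difference of 1.27 after resupply, and leaving out replicate 2 gave 0.63. WT resupplied arrays also had a lower mean dap spike-in signal (9.67) than mutant resupplied arrays (10.37), and the part of this in the difference was not tested.

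Starvation left scpl30 higher by 1.63 ± 0.22 log2 in the mutant (5.48 ± 0.18 without Pi against 3.85 ± 0.13 in complete medium, SD) and by 0.39 ± 0.22 in WT (4.51 ± 0.06 against 4.12 ± 0.20). Both differences were without overlap and both start from dim signals. With the dim groups raised to 4.40 they were 1.08 and 0.11. The starvation change was 1.25 ± 0.31 larger in the mutant. This value depends in part on dim signals, as the values at 4.40 differ only by the genotype difference without Pi (0.97).

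Resupply did not bring scpl30 down. Resupplied seedlings were higher than seedlings without Pi by 0.43 ± 0.22 in the mutant, with overlap, and by 0.49 ± 0.22 in WT, without overlap. For the mutant this value was 0.78 without replicate 3 of the resupplied arrays and 0.14 without replicate 2. Against complete medium, resupplied seedlings were higher by 2.06 ± 0.22 in the mutant and 0.87 ± 0.22 in WT. Both differences start from dim signals. With the dim complete medium groups raised to the dim level they were 1.515 in the mutant and 0.596 in WT. As for scpl22, these resupplied against complete medium differences were added after seeing the data.

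Ordered by mean, scpl30 was lowest in the mutant in complete medium (3.85), followed by WT complete (4.12), WT without Pi (4.51), WT resupplied (4.99), mutant without Pi (5.48) and mutant resupplied (5.91). The first of these groups overlapped the second, and the fifth overlapped the sixth. The group means spanned 4.62 log2 units for scpl22 and 2.06 for scpl30. Both spans start from a dim group.

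Both genes had arrays without overlap between seedlings without Pi and in complete medium in each genotype, as had 48.8% of all probe sets in the mutant and 53.2% in WT. Both also had them between the genotypes without Pi (21.9% of all probe sets) and after resupply (49.6%). Neither gene did in complete medium (25.6%). Between resupplied seedlings and those without Pi, 1 of the 2 genes had none overlapping in the mutant (scpl22, against 51.9% of all probe sets) and both had none in WT (58%). Against complete medium, the resupplied arrays of both genes stood clear in the mutant (49.3%) and those of scpl30 alone in WT (61%). These shares are background to the values above, which the choice of the genes had used, and nothing is read from them.

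**Figure D2:**
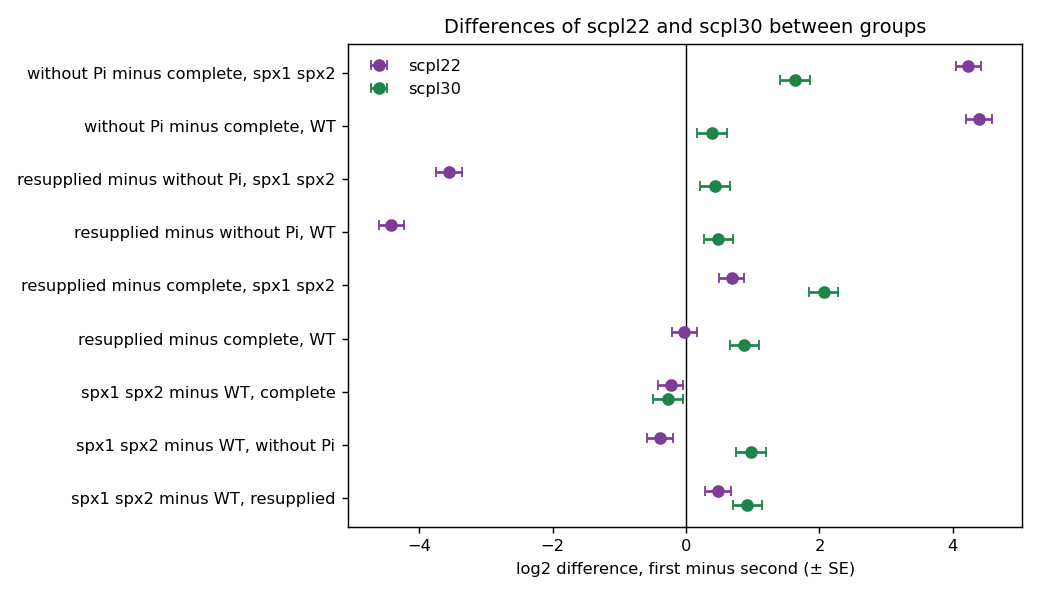
Log2 differences of scpl22 and scpl30 in 9 comparisons, first group minus second. Points are differences of group means and whiskers are ± 1 SE from the model, with 3 arrays per group. The scpl22 values of 4.23 and 4.39 for starvation and -3.55 and -4.42 for resupply stand far from 0, and scpl30 is at 0.97 and 0.92 for the mutant against WT without Pi and after resupply.

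The other measured members of the family were not used in choosing the genes, and were tested. The family list itself was chosen with earlier results of these data known. RefSeq names 51 family genes, of which 29 have a probe set to themselves here and 3 share one with another gene. The 19 others, among them SNG1, SNG2 and BRS1, have no probe set named here and were not analysed. Of the 27 members other than scpl22 and scpl30, 20 had a mean signal above the dim level. The other 7 had a dim mean signal, with group means from 2.90 to 4.32.

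Starvation moved family members in both directions. In the mutant 8 of 27 rose (background 17.7% of all probe sets) and 5 fell (26.3%). In WT 9 of 27 rose (20.4%) and 4 fell (28.1%). The median difference was 0.21 in the mutant (all probe sets -0.03) and 0.04 in WT (all probe sets -0.11). The genotypes have no array in common. In both of them 5 members rose, which is 62.5% of the mutant's rises and 55.6% of those in WT, against 76.2% and 66% over all probe sets. The 4 that fell in WT also fell in the mutant, where they are 80% of the falls (all probe sets 70.3% of the falls in the mutant and 66% of those in WT). These shares are over few genes, and nothing particular to the family is read from them.

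The largest starvation change among tested members was a fall of scpl31. Its signal averaged 4.64 without Pi against 6.67 in complete medium in the mutant (-2.04 ± 0.23, limma adjusted p = 7.68e-07), and 4.79 against 7.94 in WT (-3.15 ± 0.23, limma adjusted p = 1.33e-09). In WT scpl28 rose by 2.1 ± 0.22 (limma adjusted p = 1.26e-07), SCPL49 by 1.42 ± 0.13 (limma adjusted p = 2.29e-08) and scpl40 by 1.23 ± 0.17 (limma adjusted p = 6.69e-06). RefSeq also lists SCPL49 as carboxypeptidase Y, the name of a vacuolar peptidase in yeast. In the mutant scpl23 rose by 1.51 ± 0.17 (limma adjusted p = 5.73e-07) and SCPL34 by 1.07 ± 0.17 (limma adjusted p = 3.28e-05), and scpl42 fell by 1.003 on the log2 scale (limma adjusted p = 7.77e-07). By absolute size scpl22 ranked 1st of the 29 measured family genes in both genotypes. It was chosen with these values known, so nothing is read from this rank.

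Resupply for 4 h raised 6 of the 27 in the mutant (background 23.5%) and lowered 6 (19.3%). In WT it raised 3 (18.4%) and lowered 4 (19%). The medians were -0.06 in the mutant (all probe sets -0.01) and -0.05 in WT (all probe sets -0.06). Signals of scpl31 rose by 2.48 ± 0.23 in the mutant and 2.15 ± 0.23 in WT (limma adjusted p = 7.74e-08 and 5.59e-07). Those of scpl23 fell, with -1.27 ± 0.17 in the mutant and -1.46 ± 0.17 in WT (limma adjusted p = 5.34e-06 and 1.25e-06), and those of SCPL34 with -0.82 and -0.72 (limma adjusted p = 0.000501 and 0.00205). SCPL27 fell in WT by 0.82 on the log2 scale (limma adjusted p = 1.28e-05). In the mutant scpl40 rose by 0.80 ± 0.17 (limma adjusted p = 0.000779). The starvation and resupply comparisons share the arrays without Pi.

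**Figure D3:**
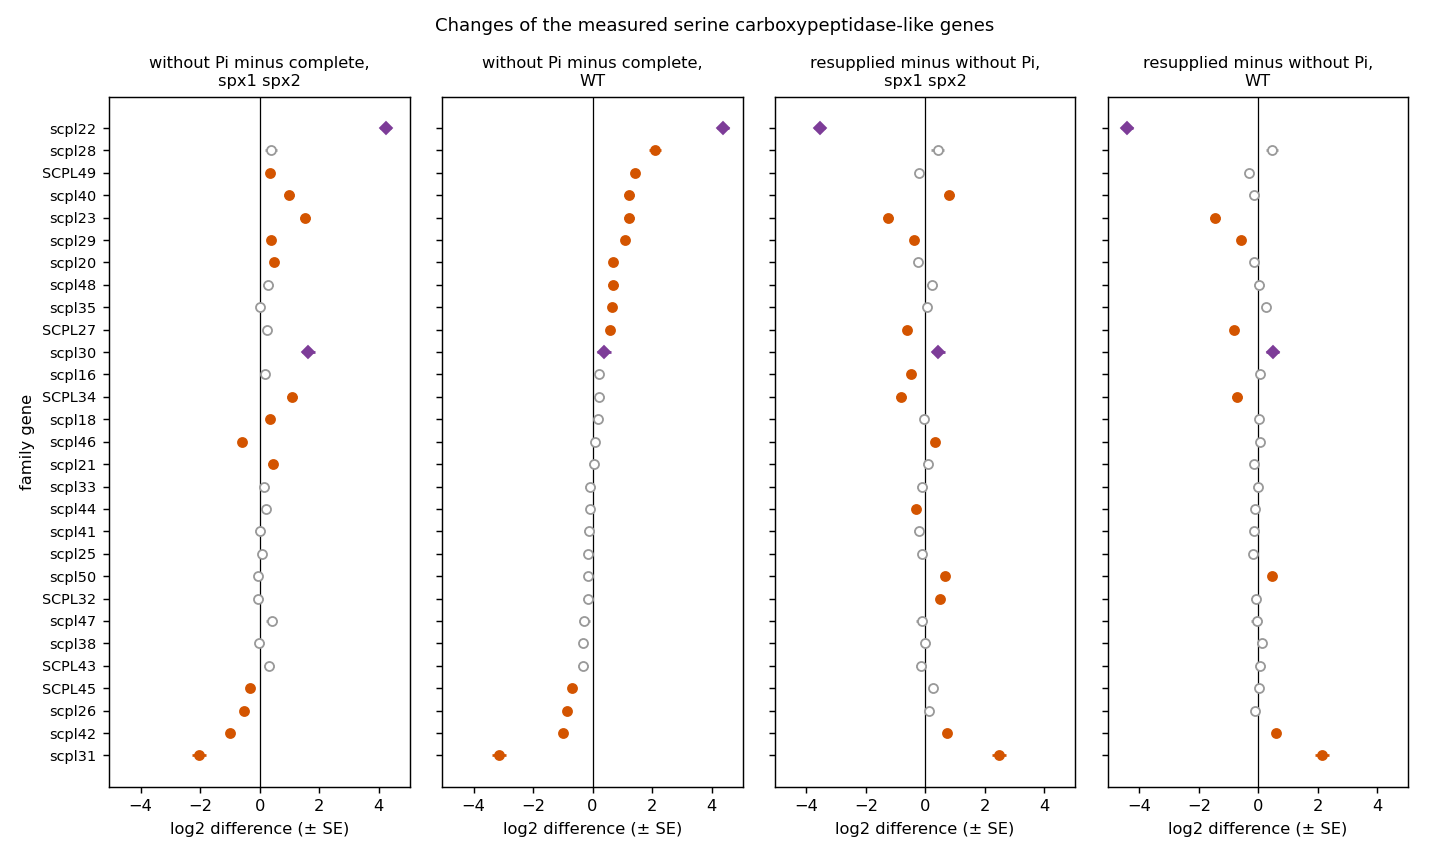
Log2 differences (± SE) of the 29 measured family genes for starvation and for resupply in each genotype, ordered by the starvation difference in WT. Filled circles passed the limma test at an adjusted p of 0.05, open circles did not, and diamonds mark scpl22 and scpl30, which were not tested. The diamond of scpl22 has the largest starvation difference in both genotypes, and scpl31 lies at the other end with -2.04 in the mutant and -3.15 in WT.

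Between the genotypes in complete medium, 4 of 27 members were higher in the mutant (background 10.1%) and 3 lower (8.15%), with a median of -0.09 (all probe sets -0.06). Of all calls in this comparison 55.3% were higher in the mutant, and 41.7% with each array centred on its median. The largest differences were those of scpl28 (1.48 ± 0.22, limma adjusted p = 6.15e-05), scpl31 (-1.27 ± 0.23, limma adjusted p = 0.000672), SCPL49 (0.82 ± 0.13, limma adjusted p = 0.000146) and scpl35 (0.65 ± 0.11, limma adjusted p = 0.000309). The mutant arrays of scpl28 were 7.18, 6.68 and 5.81, against 5.17, 4.96 and 5.11 in WT. Those of scpl31 were 6.12, 6.50 and 7.40, against 7.92, 8.25 and 7.65. For both genes replicate 3 of the mutant lay nearest to WT.

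Without Pi no genotype difference of the 27 members passed limma's test (background 0.339% higher and 0.492% lower). The median was 0.02 (all probe sets -0.01), and 40.7% of all calls were higher, or 62.8% with each array centred. The largest tested difference was that of scpl29, at -0.42 ± 0.12 (limma adjusted p = 0.121). By absolute size scpl30 ranked 1st and scpl22 3rd of the 29 in this comparison. Both were chosen with these values known, so nothing is read from these ranks.

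After resupply 2 of 27 members were higher in the mutant (background 11.4%) and 1 was lower (11.7%), with a median of 0.04 (all probe sets 0.06). These were scpl40 (0.71 ± 0.17, limma adjusted p = 0.00581), scpl26 (0.46 ± 0.12, limma adjusted p = 0.00942) and the dim scpl16 (-0.37 ± 0.13, limma adjusted p = 0.045). The scpl26 call was lost without mutant replicate 3 (adjusted p = 0.0572), and the scpl16 call was lost with each array centred (adjusted p = 0.115) and without any 1 of the 6 arrays. Fitting only these groups, or weighting arrays, called 8 of 27. Calls over all 22746 probe sets rose as well, from 5249 to 8094 and 9266, so nothing particular to the family is read from this.

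The genotype difference in the starvation change was tested as an interaction. It was higher in the mutant for 2 of 27 members (background 4.41%) and lower for 5 (7.74%), with a median of 0.14 (all probe sets 0.04). Of all its calls 36.3% were higher, and 61.9% with each array centred. SCPL49 rose by 0.33 in the mutant and 1.42 in WT (interaction -1.09 ± 0.18, limma adjusted p = 0.00052). For scpl28 the changes were 0.38 and 2.1 (interaction -1.72 ± 0.30, limma adjusted p = 0.000919); in complete medium the mutant averaged 6.56 and WT 5.08. SCPL34 rose by 1.07 in the mutant and had a change of 0.21 in WT, which did not pass (interaction 0.86 ± 0.24, limma adjusted p = 0.0235). The fall of scpl31 was smaller in the mutant, at -2.04 against -3.15 in WT (interaction 1.12 ± 0.33, limma adjusted p = 0.0324). Without the 3 low spike-in arrays neither interaction passed (limma adjusted p = 0.071 for SCPL34 and 0.0671 for scpl31), while their sizes were 0.87 and 1.19. For the resupply change 1 of 27 was higher (6.15%) and 0 lower (5.44%). The median was 0.11 (all probe sets 0.04). The member that was higher was scpl40 (0.95 ± 0.24, limma adjusted p = 0.0146), at 0.80 in the mutant and -0.15 in WT. Array weights or leaving out the low spike-in arrays called 3 of 27. Array weights also raised the count over all probe sets, given below, and nothing particular to the family is read from this.

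**Figure D4:**
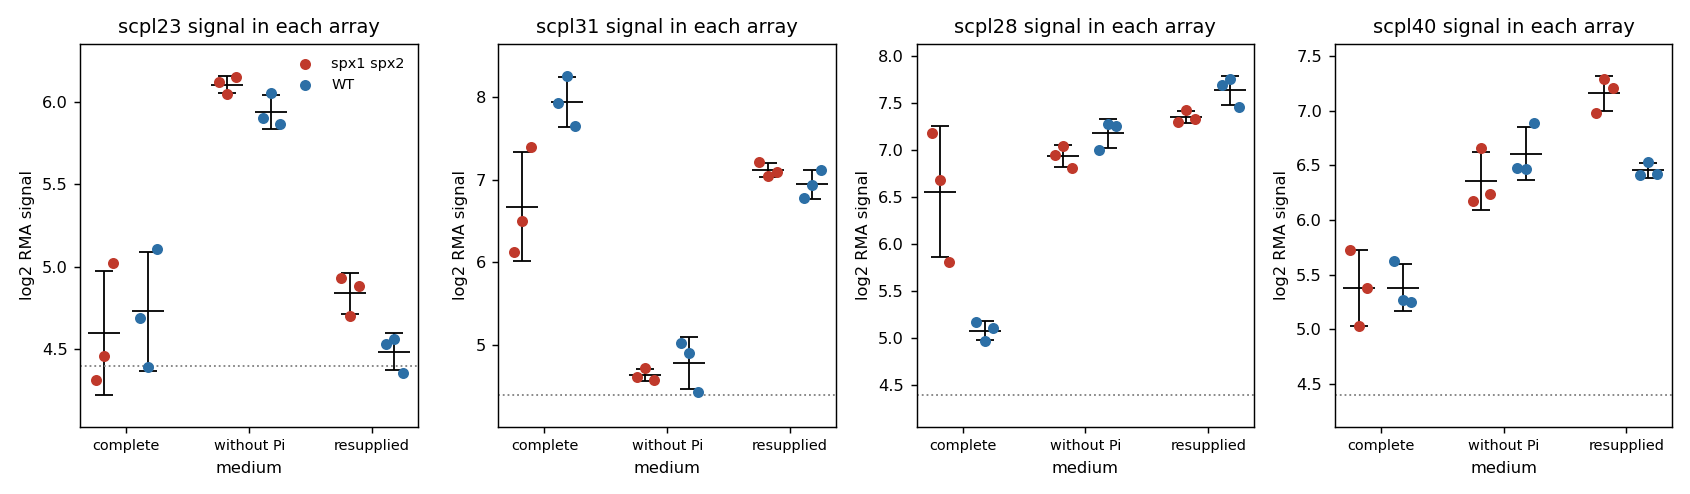
Signal of scpl23, scpl31, scpl28 and scpl40 in each array, on the log2 RMA scale, by medium and genotype. Points are arrays, long bars are means of 3 arrays, whiskers are ± 1 SD and the dotted line marks 4.40. The 6 arrays without Pi are the highest for scpl23 and the lowest for scpl31, scpl28 is lowest in WT in complete medium, and scpl40 is highest in the resupplied mutant.

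The gene that follows scpl22 in RefSeq's gene order is another family member, scpl23 (AT2G24010), and its signal went the same way with Pi at a smaller size. Mutant seedlings read 6.12, 6.05 and 6.15 without Pi, against 4.31, 4.46 and 5.02 in complete medium. WT seedlings read 5.90, 6.06 and 5.86, against 4.69, 4.39 and 5.11. The WT starvation change was 1.21 ± 0.17 (limma adjusted p = 6.34e-06). After resupply the signals were 4.93, 4.70 and 4.88 in the mutant and 4.53, 4.56 and 4.35 in WT. No genotype difference of scpl23 passed the test in any medium, and neither interaction did (0.30 ± 0.24 and 0.19 ± 0.24, limma adjusted p = 0.453 and 0.705). The names of both probe sets end in _at, and the endings _s_at mark sets shared between transcripts. Whether scpl22 transcript binds to scpl23 probes was not tested.

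Other near neighbours with a probe set were looked at after the values of scpl23 were seen. AT2G24020, the next gene but 1 after scpl22, fell on starvation by 1.04 on the log2 scale in the mutant and by 1.56 in WT (limma adjusted p = 1.6e-07 and 3.81e-10). LigB and AT4G15120 each lie 2 genes from scpl30, as the genes directly beside it have no probe set to themselves here. On starvation LigB rose by 0.92 ± 0.11 and 0.79 ± 0.11 and AT4G15120 by 1.46 ± 0.14 and 1.52 ± 0.14 (mutant and WT, limma adjusted p of 7.69e-06 or less). The genotype difference of these 2 genes was within its error without Pi for LigB (0.00 ± 0.11) and 0.24 ± 0.14 for AT4G15120 (limma adjusted p = 0.992 and 0.433), where scpl30 stood at 0.97 ± 0.22.

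Genes whose pattern was most like each of the 2 were sought by Pearson correlation over the 18 arrays among 9574 probe sets with 1 named gene and a mean above the dim level. The arrays share their groups, so a high r is mostly agreement between group means. The closest to scpl22 was BGAL16, a beta-galactosidase gene (r = 0.99 over 18 arrays and 0.998 over 6 group means). AT2G04650 (r = 0.985), the U-box kinase gene AT4G25160 (0.984), AT2G23270 (0.982) and AT2G34210 (0.981) followed. All 5 were highest without Pi, which follows from their being picked for likeness to scpl22. The level filter used the mean over all arrays, so genes dim in some groups could pass. AT4G25160 averaged 3.86 in the mutant and 3.73 in WT in complete medium, both dim. It averaged 8.20 in the mutant and 8.32 in WT lacking Pi, and 4.59 and 4.40 when resupplied. AT2G34210 was also dim in complete medium, at 4.295 in the mutant and 4.188 in WT.

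For scpl30 the likeness was weaker. AT2G37870, of the lipid transfer protein superfamily, came first (r = 0.889 over 18 arrays and 0.945 over 6 group means). Next were AT1G24600 and the bHLH factor gene AT5G57150 (both 0.876), ZIP6, a metal transporter gene of the ZIP family (0.867), and AT5G58375 (0.859). AT2G37870 averaged 5.87 in the mutant in complete medium against 5.56 in WT, 9.97 in the mutant without Pi against 8.47 in WT, and 10.4 in the resupplied mutant against 8.46 in WT. The other 4 moved over a narrower range than scpl30: ZIP6 spanned from 6.16 in mutant seedlings in complete medium to 7.31 in resupplied mutant seedlings.

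**Figure D5:**
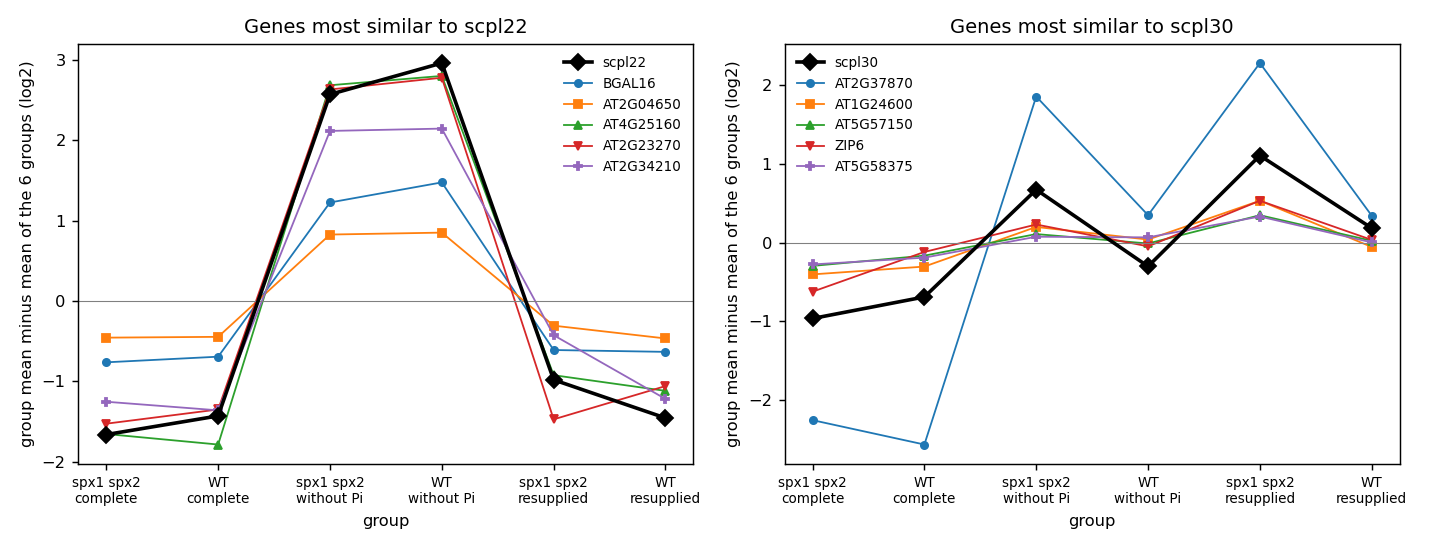
Group means of scpl22 (left) and scpl30 (right) and of the 5 genes most like each by correlation over 18 arrays, each minus the mean of its own 6 group means (log2 units). Black diamonds are scpl22 and scpl30. The 5 genes on the left, picked for likeness to scpl22, are high in both groups without Pi and low elsewhere. On the right, AT2G37870 has a wider span than scpl30 in the same order of genotypes without Pi and after resupply.

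The labelled tissue, whole seedlings, could be set against few markers. Of 15 markers fixed for leaf, root hair, root and seed, 3 have a probe set named here, with 0 of 5 for leaf photosynthesis and 0 of 3 for seed reserves. Root hair expansins, 2 of 4 root hair markers, ranged from 6.62 to 9.99 over all arrays. In complete medium EXPA7 averaged 7.27 in the mutant and 6.78 in WT. Lacking Pi it averaged 7.58 in the mutant and 7.79 in WT, and resupplied 9.49 and 8.25, and EXPA18 lay in the same order. The root gene PYK10 averaged 12.93 in the mutant and 12.49 in WT in complete medium. Its means were 12.94 in mutant and 13.28 in WT seedlings lacking Pi, and 13.25 and 13.47 in resupplied ones. Both expansins averaged higher in the mutant after resupply, as scpl30 was. They were also higher in the mutant in complete medium, where scpl30 was not, and not without Pi, where scpl30 was. Their part in the scpl30 differences was not tested.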

How the data were processed

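Per the submitters' processing notes, the deposited log2 values were made by the authors with RMA, which corrects background, equalizes the arrays' distributions and summarises each probe set to 1 value per array. The log base was inferred from their range (2.289 to 14.346), and the sources used here do not name the software, its version or the probe set definition. Labelled RNA was made from 3 micrograms of total RNA, per the labels' protocols. The number of arrays limits the precision.

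Of 22810 probe sets, 64 controls were left out. Names came from the platform's probe table, updated by gene identifier to RefSeq (13436 of 13513 probe sets with 1 gene matched). The other sets name several genes (503) or none here (8730). RefSeq's assembly is TAIR10.1, and no coordinates are given because the files name no build.

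A mean per group was fitted to all 18 arrays with limma 3.58.1 on R 4.3.3 (12 residual and 6.4 prior degrees of freedom), and p values, all two-sided, were adjusted by Benjamini-Hochberg over 22746 probe sets at 0.05 for 9 comparisons. The procedure was tested on simulated data. The 2 genes, the family list and the markers were chosen with earlier results of these data known. Named were the 2 genes, up to 4 family members with the largest change that passed per comparison (or the largest where none did), and the 5 genes most like each of the 2. Alternatives were array centring, a filter on dim probe sets, array weights, a trended robust prior, a replicate block, fits to the compared groups alone, and leaving out arrays. A planned promoter motif count was not run, as promoter sequences were not used here.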

Additional observations from a re-analysis of the deposited data

Results flagged for a closer look

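Each value here is the difference between 2 genotypes in the same change, taken from the interaction term of the limma model. For the starvation change (mutant minus WT, log2) it was -1.72 for scpl28, 1.12 for scpl31, -1.09 for SCPL49 and 0.86 for SCPL34. For the resupply change it was 0.95 for scpl40. The 4 starvation values contain the complete medium difference between the genotypes, in which the mutant arrays of scpl28 and scpl31 spread over more than 1 log2 unit. With groups of 3 arrays, no single array was tested as an outlier.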

How the results depend on the processing

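No alternative turned the direction of a named family member's change. For scpl22 the complete medium genotype difference was 0.047 and the WT starvation difference 4.66 without the 3 low spike-in arrays. Leaving out 1 array at a time gave -0.51 to 0.041 and 4.12 to 4.66 for these, and -0.43 to 0.12 for its starvation interaction, with WT in complete medium replicates 2 and 3 setting the ends. For scpl30 it gave 0.63 to 1.27 for the genotype difference after resupply, 0.14 to 0.78 for the resupply change in the mutant and -0.34 to 0.30 for its interaction. Replicates 2 and 3 of the resupplied mutant set these ends. Family calls between genotypes in complete medium were 7, and 4 from the compared groups alone. After resupply they were 3, with 8 under array weights, 8 from the compared groups alone and 1 to 2 with 1 array left out. For the resupply interaction they were 1, with 3 under array weights, 3 without the low spike-in arrays, 2 from the compared groups alone and 1 to 2 with 1 array left out. The scpl31 interaction for starvation had an adjusted p of 0.0859 and that of SCPL34 0.0707 in the compared groups alone, and leaving out 1 array ended the call in 7 and 4 of 12 cases. The cause was not tested.

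Over all probe sets the genotype count in complete medium was 4146, with 1525 from the compared groups alone and 2370 without mutant replicate 1. Without Pi it was 189, with 667 under array weights and 49 to 155 with 1 array left out. After resupply it was 5249, with 9266 under array weights, 8094 from the compared groups alone and 3311 to 5339 with 1 array left out. The starvation interaction had 2762, with 1580 from the compared groups alone and 1687 to 3555 with 1 array left out. The resupply interaction had 2638, with 5843 under array weights, 4017 from the compared groups alone and 1692 to 2886 with 1 array left out. Same-numbered replicates did not deviate together (correlations from -0.45 to 0.232 over 21 pairs), so the numbers were not taken as pairs. With a replicate block 125 probe sets passed between the genotypes without Pi, and no family count moved by more than 1 call.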

Other observations

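The only neighbouring pair in RefSeq's order of the family, other than scpl22 and scpl23, with both genes measured is scpl28 and scpl26, noticed after the data were seen. On starvation in WT scpl28 rose by 2.1 ± 0.22 while scpl26 fell by 0.85 on the log2 scale (limma adjusted p = 1.26e-07 and 7.52e-06). In the mutant the scpl28 change of 0.38 did not pass, while scpl26 again fell, at -0.53 (limma adjusted p = 0.17 and 0.00135). After resupply scpl28 averaged 7.35 in the mutant and 7.64 in WT, and scpl26 averaged 9.39 and 8.93.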
